A study of Mus musculus with 4 samples.

Results

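The mitochondrial ribosomal proteins were followed here as 1 gene family across 4 macrophage arrays. Members were taken by name alone: a probe set belonged to the family if the array annotation tied it to exactly 1 gene and that gene's symbol began with Mrpl or Mrps followed by a number. That gave 127 of the 22690 probe sets on the array, which stood for 74 of the 12393 genes with such a probe set. Of these genes, 47 carry large subunit symbols (Mrpl) and 27 carry small subunit symbols (Mrps). RefSeq lists 78 protein-coding mouse genes with such symbols, and the other 4 (Mrpl30, Mrpl53, Mrps10 and Mrps27) were not used here. No measured value entered the choice of members.

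The study compared sorted mouse macrophages with and without the transcription factor Ets2, in mammary tumors and in mammary glands undergoing remodeling, on Affymetrix arrays. Each of the 4 groups was 1 array. The remodeling Ets2-expressing array was labelled wild-type, without tumor, and the remodeling Ets2-deficient array came from glands without tumor and with 2 copies of Ets2 deleted. The tumor Ets2-expressing array is titled wildtype, while its source label gives 1 copy of Ets2, and the tumor Ets2-deficient array came from animals with 2 copies deleted; both tumors were labelled early stage. In all 4 groups the cells were YFP-positive macrophages collected by flow sorting, and about 10 ng of RNA was amplified as cDNA before labelling. The element that drives YFP and the Ets2 deletion, the animals' ages and the number of animals behind each array are not given in the sources used here. The comparison between the tumor arrays is therefore between a label of 1 Ets2 copy and a deletion, and the comparison between the remodeling arrays between wild-type and a deletion.

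Mitochondria keep a ribosome of their own, which translates the few proteins encoded in mitochondrial DNA, all of them subunits of the respiratory chain and ATP synthase. Its protein components are encoded in the nucleus, made in the cytosol and imported, and they must be assembled with ribosomal RNA made inside the organelle. Some of these proteins have counterparts in the bacterial ribosome, and others were added during mitochondrial evolution. In macrophages, oxidative phosphorylation is known to vary with the state of activation.

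Values are log2 expression levels as deposited, and a value on 4 arrays is given with both remodeling arrays first (Ets2-expressing, then Ets2-deficient) and both tumor arrays after them (Ets2-expressing, then Ets2-deficient). Where a gene had several probe sets, the brightest on average stood for it. A difference was counted where the brighter of both arrays was at or above its own median over all probe sets, which is called bright here, and it was called where it reached 2-fold, or 1 on the log2 scale. With 1 array per group there is no replicate, so no test was run. The scatter among a gene's own probe sets is the only error that can be given. It is taken on the same arrays, so it does not include variation between animals, sorts or amplifications.

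Array medians were between 5.98 and 6.30, while the 25th percentiles were between 4.27 and 4.32 and the 75th between 8.77 and 8.82. Centring on the medians therefore moved arrays whose quartiles already lay close together. Ets2 itself read 13.24, 12.97, 12.76 and 12.67, so the arrays labelled Ets2-deficient were not low in its signal; where its probes lie relative to the deletion is not given in the sources used here, so this is no check of the labels. Of 18 measured macrophage markers, 17 were at or above the array median on every array, including the receptor Csf1r at 13.09 to 13.25. The integrin Itgam was below it on every array at 4.99 to 5.99. Of the 17 bright markers only Cx3cr1 passed 2-fold, at 6.77, 8.99, 9.53 and 10.19, in ascending order. Cx3cr1 was higher without Ets2 by 2.22 in remodeling and by 0.66 in tumor macrophages. Its tumor value exceeded its remodeling value by 2.76 with Ets2 and by 1.20 without. The median difference of the 17 markers lay between -0.04 and 0.08 in the 4 comparisons. The summed linear level of 13 mammary epithelial markers was 906, 488, 11080 and 20218, and that of 12 fibroblast markers was 21384, 6163, 10768 and 10966. For Actb, the signal near the 3' end exceeded that near the 5' end, a sign of RNA length, by 2.72, 2.96, 3.30 and 3.54. The same difference was 1.61, 1.80, 2.45 and 2.27 for Gapdh and 5.75, 5.96, 5.03 and 5.27 for Tfrc. Epithelial marker signal stood highest on the tumor Ets2-deficient array. The 3 controls of RNA length did not order the arrays alike: Actb was highest on the tumor Ets2-deficient array, Gapdh on the tumor Ets2-expressing array and Tfrc on the remodeling Ets2-deficient array. The part of these in the results that follow was not tested.

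The family was well expressed: 70 of the 74 genes were at or above the array median on all 4 arrays. Mrpl10, whose product is at the base of the ribosomal stalk, and Mrpl55 reached it on some arrays. Mrpl45 and Mrps5 reached it on none, so their differences are not counted. The median level of the family was 8.66, 8.91, 8.98 and 9.30, an ascending order from the remodeling Ets2-expressing to the tumor Ets2-deficient array. The range of a gene over the 4 arrays had a median of 0.66, from 0.13 to 1.53, beside a median of 0.63 over all bright genes. In bulk samples such as these, fewer cells of a type and less RNA per cell cannot be told apart.

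The tumor Ets2-deficient array was the highest of the 4 for 59 of the 74 genes, or 79.7%, compared with 32% of the 7473 genes that were bright in any comparison. The remodeling Ets2-expressing array was the lowest for 53 family genes, or 71.6%, compared with 34.4%. A full ascending order over the 4 arrays was seen for 32 family genes, or 43.2%, compared with 12.3% of bright genes. For subunits of the respiratory chain and ATP synthase the 3 shares were 78.5%, 63.3% and 36.7%, so this pattern was not particular to the family. The counts depend on how the arrays are scaled. With each array centred on its median, the tumor Ets2-deficient array was highest for 41 family genes (55.4%, beside 19.5% of bright genes) and the remodeling Ets2-expressing array lowest for 55 (74.3%, beside 34.3%). The full order then held for 9 (12.2%, beside 6.85%). With the hybridization controls the counts were 52 (70.3%, beside 26.6%) for the highest and 53 (71.6%, beside 36.4%) for the lowest array. The full order then held for 5 family genes, or 6.76%, below the 8% of bright genes. Quantile normalization gave 57 (77%, beside 28.6%), 55 (74.3%, beside 34.7%) and, for the full order, 31 (41.9%, beside 12%). The ascending order of all 4 arrays thus turned on the scaling. The shares of family genes highest on the tumor Ets2-deficient array and lowest on the remodeling Ets2-expressing array stayed above those of bright genes in these 3 alternatives.

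**Figure D1:**
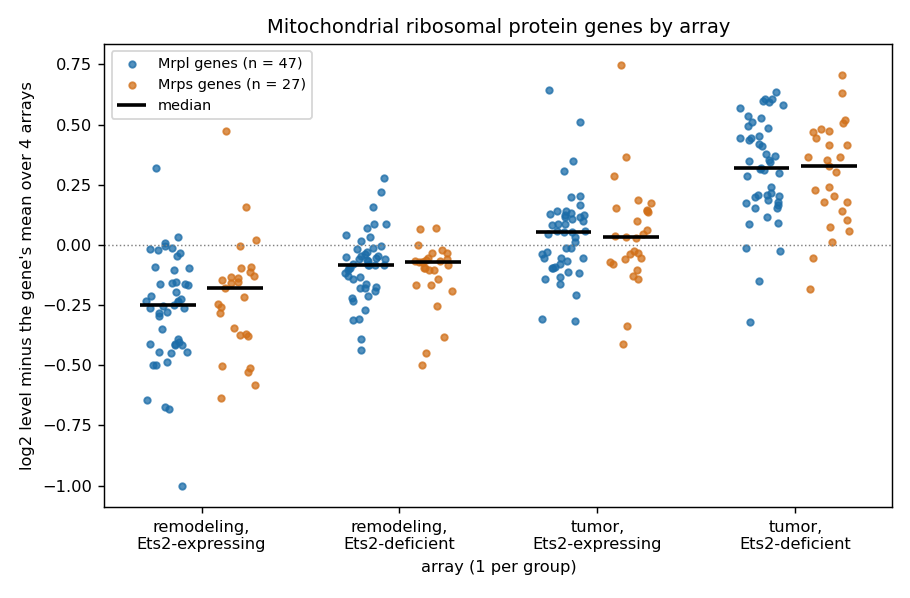
Each point is 1 mitochondrial ribosomal protein gene, placed by its log2 level minus its own mean over the 4 arrays, for 47 Mrpl and 27 Mrps genes, with bars at the medians. Points lie mostly below 0 on the remodeling Ets2-expressing array, which was lowest for 53 genes, and above 0 on the tumor Ets2-deficient array, which was highest for 59.

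Between the tumor arrays, mitochondrial ribosomal protein genes were mostly higher on the Ets2-deficient array, by small amounts. The median difference of the 72 bright genes was 0.32, with quartiles at 0.08 and 0.45, while the median over all 7225 bright genes was 0.03. Of the family genes, 60 of 72, or 83.3%, lay above 0, beside 53.1% of all bright genes. Under the 3 other scalings the family median stayed above 0, at 0.24 with median centring, 0.29 with quantile normalization and 0.38 with the hybridization controls. Only 1 family gene was called higher and 0 lower, beside 2.23% of all bright genes called higher and 0.761% lower (2.99% in either direction), so the count of called genes was not above the background. At 1.5-fold, 7 family genes, or 9.72%, were higher, against a background of 9.27%, and 1 was lower, beside 5.99%. The family's difference was thus a modest displacement of many genes and not an excess of large ones.

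Mrps14, a small subunit protein with a bacterial counterpart, was the called gene. It read 8.52, 8.62, 8.27 and 9.31, so the tumor Ets2-deficient array stood above the other 3, which differed by less. The difference between the tumor arrays was 1.04, or 2.06-fold. A further bright probe set of Mrps14, at 6.68, 7.03, 7.20 and 7.46, gave a difference of 0.26 for the same arrays, so the size of the change was not shared by both. The 250 bases before the start of Mrps14 (chr1:160194965-160195214, plus strand, RefSeq on GRCm38.p6) are shown because it was the only called gene of this comparison, and they hold none of the ETS, NRF1 or YY1 motifs described further on.
Mrps14: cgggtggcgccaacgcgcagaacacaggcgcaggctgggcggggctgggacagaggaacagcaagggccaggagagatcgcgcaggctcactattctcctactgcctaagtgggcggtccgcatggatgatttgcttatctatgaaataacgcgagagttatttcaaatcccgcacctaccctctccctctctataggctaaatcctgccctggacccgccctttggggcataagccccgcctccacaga

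Mrpl34 and Mrpl52 were higher on several probe sets. Mrpl34, a small protein of the large subunit with a bacterial counterpart, read 9.10, 9.48, 9.45 and 10.15, highest on the tumor Ets2-deficient array. Its tumor difference was 0.70, and its other probe set gave 0.80. Mrpl52, a mitochondria-specific protein of the large subunit, read 12.07, 12.36, 12.54 and 12.98, an ascending order. Its tumor difference was 0.45, and the other bright probe sets gave 0.35 and 0.50. The stretches before both genes (chr8:71464676-71464925 and chr14:54426659-54426908, both on the plus strand, RefSeq on GRCm38.p6) are shown because their probe sets gave like differences and because both hold the ETS motif CCGGAAG. Capitals mark it: in Mrpl34 it lies 37 bases before the start, and in Mrpl52 it is read on the opposite strand, as CTTCCGG, 47 bases before the start. Mrpl52 holds CTTCCGG once more just after the start, beyond the stretch shown.
Mrpl34: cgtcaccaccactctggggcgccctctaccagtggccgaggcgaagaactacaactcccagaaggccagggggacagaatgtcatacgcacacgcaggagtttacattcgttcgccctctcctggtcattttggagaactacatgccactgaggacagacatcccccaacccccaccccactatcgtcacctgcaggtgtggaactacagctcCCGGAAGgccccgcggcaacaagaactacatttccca
Mrpl52: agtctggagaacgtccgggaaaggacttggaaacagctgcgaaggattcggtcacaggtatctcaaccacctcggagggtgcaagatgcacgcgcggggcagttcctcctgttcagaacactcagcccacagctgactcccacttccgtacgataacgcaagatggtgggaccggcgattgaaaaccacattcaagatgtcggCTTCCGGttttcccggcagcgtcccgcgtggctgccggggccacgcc

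Mrpl49, a mitochondria-specific large subunit protein, read 7.78, 7.44, 7.44 and 8.33. Its tumor difference of 0.89 was the next after Mrps14 in size, but its other bright probe set, at 7.18, 7.40, 7.20 and 7.18, gave -0.03. The 2 probe sets of Mrpl49 therefore did not share the change. Mrps36 read 9.19, 9.35, 8.95 and 9.65, a difference of 0.70; its product is now known as a subunit of the 2-oxoglutarate dehydrogenase complex and not of the ribosome, although its symbol places it in the family. Mrps7, a protein of the small subunit head, differed by 0.66.

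The lowest family gene between the tumor arrays was Mrpl44, a mitochondria-specific large subunit protein with a ribonuclease III-like fold. It read 10.06, 10.33, 11.15 and 10.48, with the tumor Ets2-expressing array above the other 3. The tumor difference was -0.68, and its other probe sets gave -0.73 and 0.01. Mrpl50 and Mrpl46, both mitochondria-specific proteins of the large subunit, followed with -0.38 and -0.34, then Mrpl38 with -0.15 and Mrps31 with -0.11. Mrpl50, at 7.04, 6.66, 6.78 and 6.40, was the only family gene with negative differences in all 4 comparisons, on the probe set used. Beside these differences, 12 of 13 epithelial markers were also higher on the tumor Ets2-deficient array, with a median of 0.81, and the summed level of 8 neutrophil markers was 6416 and 17122 on the Ets2-expressing and Ets2-deficient tumor arrays. Only 4 of these neutrophil markers, S100a8, S100a9, Cxcr2 and Ltf, were bright here, and all 4 were higher, with a median of 1.27. Of 19 bright cell cycle genes 17 were higher, with a median of 0.50, while the 3 bright mast cell and the 3 bright B cell markers were lower, with medians of -0.66 and -0.40. The part of these lists in the family's difference was not tested.

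**Figure D2:**
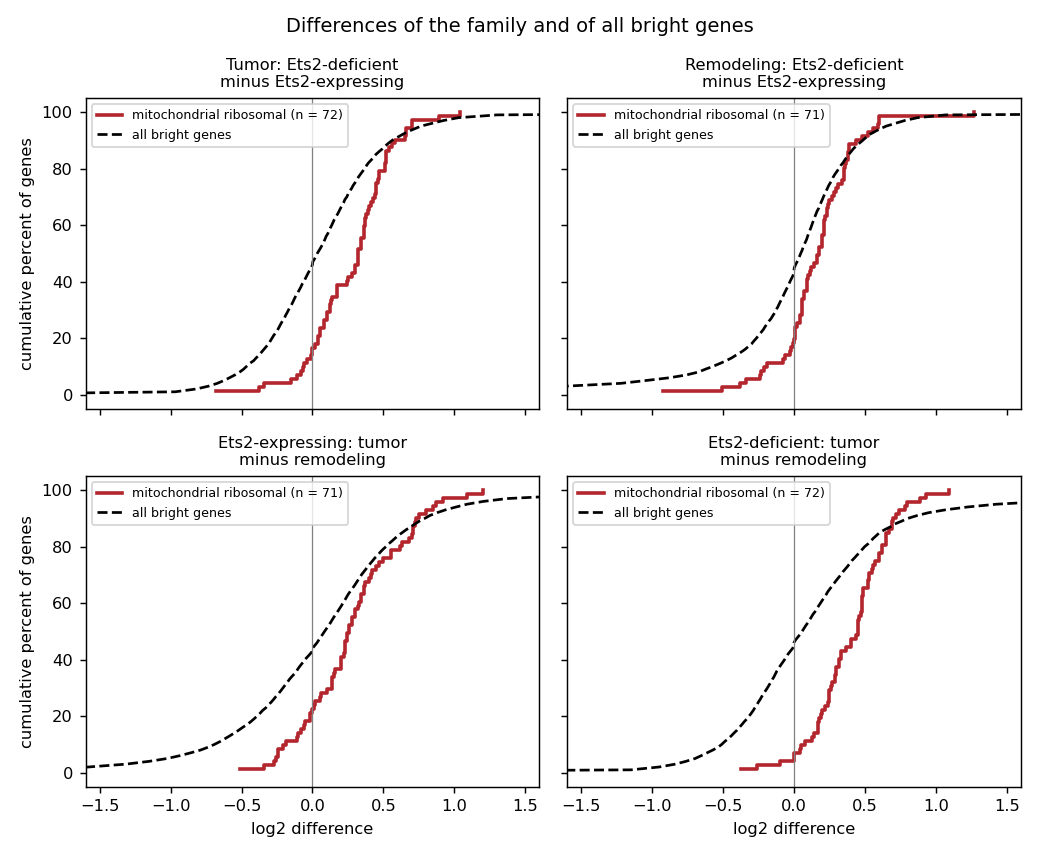
Cumulative percent of bright genes (vertical axis) against their log2 difference (horizontal axis) for the 72, 71, 71 and 72 bright mitochondrial ribosomal protein genes, solid, and for all bright genes, dashed, in the 4 comparisons. The family's line lies to the right of the other over most of each panel, with medians of 0.32, 0.18, 0.26 and 0.45 beside 0.03, 0.05, 0.09 and 0.06.

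Between the remodeling arrays the family was also mostly higher on the Ets2-deficient array, by less. The median over 71 bright genes was 0.18, with quartiles at 0.03 and 0.33, beside 0.05 over all 7095 bright genes. Above 0 lay 57 family genes, or 80.3%, compared with 55.3% of all. Under the other scalings the family median was 0.18 (quantile normalization), 0.37 (median centring) and 0.38 (hybridization controls), but those centrings also raised the median of all genes, by 0.19 and 0.20. Set against the median of all bright genes, the family was 0.13 higher here and 0.29 higher between the tumor arrays; whether the 2 displacements differ was not tested. In this comparison 1 family gene was called higher and 0 lower, beside a background of 1.31% higher and 5.17% lower (6.48% in either direction). At 1.5-fold, 4 family genes, or 5.63%, were higher, beside 6.53% of all, and 1 was lower, beside 9.73%.

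The called gene was Mrpl55, a mitochondria-specific protein of the large subunit with 1 probe set. It read 5.16, 6.44, 6.36 and 6.69, so the remodeling Ets2-expressing array was low and the other 3 lay close together. The difference was 1.27, or 2.42-fold, on a probe set near the array median, and it was not counted when the brighter array had to reach its 75th percentile. Mrpl55 starts 55 bases from 2610507I01Rik, which is transcribed the other way. The 54 bases between both starts (chr11:59202432-59202485, plus strand, RefSeq on GRCm38.p6) are shown because Mrpl55 was called in 2 comparisons, and they hold none of the 3 motifs.
Mrpl55: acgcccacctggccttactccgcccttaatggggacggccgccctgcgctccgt

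Mrpl2, whose bacterial counterpart lies at the peptidyl transferase centre, read 6.64, 7.24, 7.49 and 7.92, an ascending order with a remodeling difference of 0.60. Mrpl4, whose bacterial counterpart reaches into the exit tunnel, read 6.20, 6.80, 6.93 and 7.45, also ascending and with a difference of 0.60. Mrpl57 differed by 0.59 and Mrps34, a mitochondria-specific small subunit protein, by 0.56. The other probe set of Mrpl57 gave 0.32, in the same direction.

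At the other end, Mrps18a read 7.66, 6.74, 7.15 and 7.20, highest on the remodeling Ets2-expressing array. Its difference of -0.92 was the lowest of the family, on its only probe set. Despite its symbol, the Mrps18a protein is part of the large subunit. Mrps6, a small subunit protein with a bacterial counterpart, read 9.61, 9.09, 9.62 and 10.03 and differed by -0.51, so it was low on the remodeling Ets2-deficient array. Mrpl50, Mrpl49 and Mrps22 followed with -0.38, -0.34 and -0.24. Beside this comparison, 10 of 10 bright fibroblast markers were lower on the remodeling Ets2-deficient array, with a median of -2.17. All 3 bright epithelial markers were lower, with a median of -1.51, as were all 4 bright mast cell markers, which differed by -3.20 to -2.36. The 3 bright B cell markers were higher, with a median of 0.73, and 19 of 20 bright cell cycle genes were higher, with 0.70. The part of these lists was not tested.

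Both Ets2 comparisons were above 0 for 50 of the 74 genes, or 67.6%, compared with 30.5% of bright genes. With the hybridization controls these shares were 78.4% and 45.1%, and with median centring 66.2% and 34.3%. Genes of the respiratory chain and ATP synthase were at 64.6%, and with these scalings at 82.3% and 68.4%. The Ets2 comparisons use no array in common. Over the 71 family genes bright in both, their differences correlated with Pearson r = 0.15, beside 0.06 over 6849 genes. This is a description across genes that share amplification and normalization. The pooled standard deviation between the probe sets of a gene, 0.338 and 0.278 over all genes, was no smaller than the family medians of 0.32 and 0.18. Within the family it was 0.292 and 0.263, a little below the first of these medians and above the second. A low r therefore cannot show whether the sizes in tumor and remodeling macrophages are related from gene to gene.

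Tumor and remodeling macrophages were compared next, separately for each Ets2 label. On the Ets2-expressing arrays the tumor was higher by a median of 0.26 over 71 bright family genes, with quartiles at 0.03 and 0.49, beside 0.09 over all 7253 bright genes. Above 0 lay 55 genes, or 77.5%, compared with 55.9%. The family median was 0.18 to 0.28 under the other 3 scalings. Called higher were 2 family genes, and 0 were called lower, beside a background of 6.18% higher and 5.2% lower (11.4% in either direction), so large differences were no more common in the family than elsewhere. At 1.5-fold, 15 genes, or 21.1%, were higher and 0 lower, beside 16.9% and 13% of all.

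The 2 called genes were Mrpl55, with 1.20 and the values given above, and Mrpl44, with 1.09, or 2.13-fold. Mrpl44 was high on the tumor Ets2-expressing array alone. One of its further probe sets, at 9.55, 9.85, 10.74 and 10.01, repeated that pattern with a difference of 1.18, and the other, at 8.03, 8.51, 8.60 and 8.60, gave 0.56. The 250 bases before Mrpl44 (chr1:79775768-79776017, plus strand, RefSeq on GRCm38.p6) are shown because it was the member that departed most from the family's order on several probe sets, and they hold none of the 3 motifs.
Mrpl44: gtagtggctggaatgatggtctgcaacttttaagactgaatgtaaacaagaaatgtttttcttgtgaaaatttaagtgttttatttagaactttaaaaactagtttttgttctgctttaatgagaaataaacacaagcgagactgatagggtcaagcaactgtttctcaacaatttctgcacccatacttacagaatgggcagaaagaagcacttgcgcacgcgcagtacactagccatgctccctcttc

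Mrps34 differed by 0.92, Mrps23 by 0.87, Mrpl2 by 0.85 and Mrpl57 by 0.80. Mrps34 read 7.85, 8.42, 8.77 and 8.90, and Mrps23, a mitochondria-specific small subunit protein, read 7.64, 7.98, 8.51 and 8.45. For Mrps34 the remodeling Ets2-expressing array was the low one, and for Mrps23 both tumor arrays were high on the probe set used. A further probe set of Mrps23, at 6.62, 6.98, 7.50 and 6.85, gave 0.88 here but was high on the tumor Ets2-expressing array alone, with -0.65 between the tumor arrays and -0.13 between the Ets2-deficient arrays. That of Mrpl57 gave -0.09. Lowest were Mrps18a at -0.51, Mrpl49 at -0.34, Mrpl40 at -0.27, Mrpl50 at -0.26 and Mrps14 at -0.24. All 13 epithelial markers were higher on the tumor array here, with a median of 2.89. All 10 bright fibroblast markers and all 4 bright mast cell markers were lower, with medians of -1.27 and -1.29. The 5 bright T and NK cell markers were higher, with a median of 0.45, as were the 3 bright B cell markers, with 0.98. Of 18 bright cell cycle genes 13 were higher, with a median of 0.51. The part of these lists in the family's differences was not tested.

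On the Ets2-deficient arrays the tumor was higher by a median of 0.45 over 72 bright family genes, with quartiles at 0.25 and 0.57, beside 0.06 over all 7203 bright genes. Above 0 lay 67 genes, or 93.1%, compared with 53.7%, and 4 lay below. This was the widest displacement of the 4, but it was also the one that depended most on scaling. With median centring the family median was 0.13 with 62.5% above 0, and the median of all bright genes fell by 0.32, leaving 30.5% above 0. The hybridization controls gave 0.22 and 76.4%, with the median of all genes lower by 0.22, and quantile normalization gave 0.35. Set against the median of all bright genes, the family was 0.39 higher, the widest displacement of the 4. Called were 1 family gene higher and 0 lower, beside a background of 7.61% and 1.61% (9.22% in either direction). At 1.5-fold, 18 family genes, or 25%, were higher, beside 15.9% of all, and 0 were lower, beside 7.76%.

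The called gene was Mrps12, the counterpart of the bacterial decoding-site protein in which streptomycin resistance arises. It read 7.68, 7.81, 8.38 and 8.90, an ascending order with both tumor arrays above both remodeling arrays. The difference was 1.09, or 2.13-fold, on its only probe set, and between the Ets2-expressing arrays it was 0.71. Mrps12 starts 147 bases from Sars2, the mitochondrial seryl-tRNA synthetase, in the opposite orientation. Sars2 read 4.91, 4.78, 4.62 and 4.84, below the array median on every array, so no shared change could be looked for. The stretch between both starts (chr7:28741822-28741967, minus strand, RefSeq on GRCm38.p6) is shown because Mrps12 was the called gene, and these bases hold none of the 3 motifs. The wider searched window of Mrps12 holds both the YY1 motif, 199 bases before the start and so beyond the start of Sars2, and the ETS motif, just after the start.
Mrps12: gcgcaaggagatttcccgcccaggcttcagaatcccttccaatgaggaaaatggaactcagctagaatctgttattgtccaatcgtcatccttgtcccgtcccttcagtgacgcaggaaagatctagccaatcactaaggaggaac

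Mrps6 differed by 0.93 and Mrpl49 by 0.89. Mrpl12, the stalk protein that in bacteria recruits translation factors, read 8.78, 9.01, 9.33 and 9.80 and differed by 0.80, with ascending values. Mrpl10, its partner at the stalk, read 5.30, 5.62, 5.88 and 6.39 and differed by 0.78; only its tumor Ets2-deficient value passed the array median. For Mrpl49 the further probe set gave -0.23. Lowest were Mrpl14 at -0.37, Mrpl50 at -0.26 and Mrpl24 at -0.10, and Mrpl19 and Mrps25 were at 0.00 to 2 decimals; another bright probe set of Mrps25 gave 0.47. All 13 epithelial markers were higher on the tumor array, with a median of 4.57, and so were all 9 bright fibroblast markers, with a median of 0.67, and the 5 bright T and NK cell markers, with 0.77. All 4 bright neutrophil markers were higher too, S100a8, S100a9 and Cxcr2 by 0.94, 0.70 and 0.95 and Ltf by 5.99. Between the Ets2-expressing arrays S100a8, S100a9 and Cxcr2 were lower, at -1.18, -1.31 and -1.23, while Ltf was higher, at 3.66. Ltf read 5.87, 4.52, 9.53 and 10.51, high on both tumor arrays as the epithelial markers were. Higher as well were 14 of 20 bright cell cycle genes. Their median of 0.14 turned to -0.17 with median centring and -0.08 with the hybridization controls. The part of these lists was not tested.

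**Figure D3:**
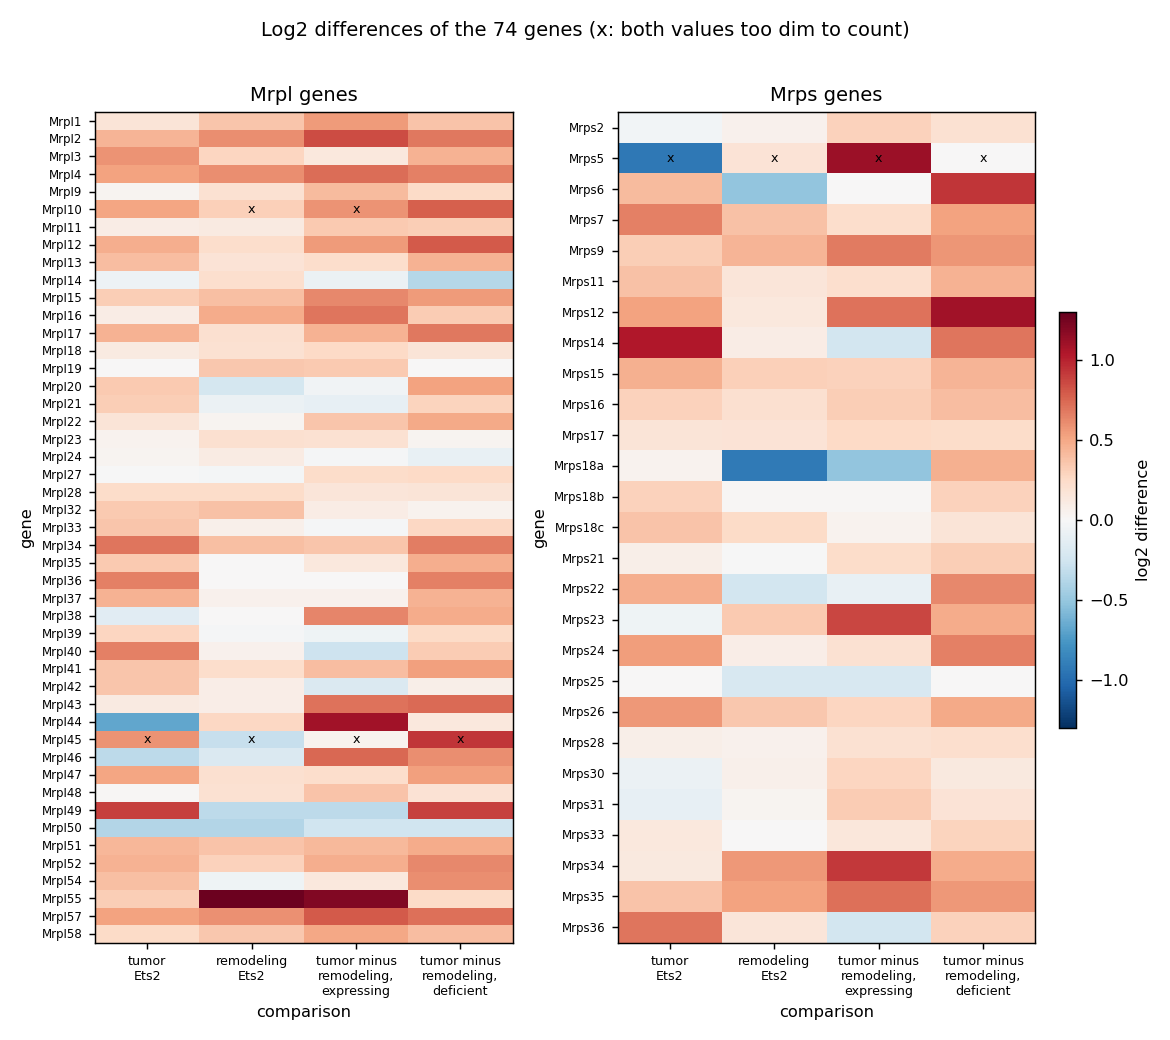
Colour gives the log2 difference of each of the 74 genes (rows, by symbol) in the 4 comparisons (columns), with a cross where the brighter array did not reach its median. Red cells, higher on the first-named side, prevail; the darkest without a cross are Mrps14 between the tumor arrays (1.04), Mrpl55 between the remodeling arrays (1.27), Mrpl55 and Mrpl44 (1.20 and 1.09) between the Ets2-expressing arrays and Mrps12 (1.09) between the Ets2-deficient arrays.

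The tumor-minus-remodeling comparisons share no array with each other, and over 71 family genes they correlated with r = 0.27, beside 0.58 over 6990 genes, again as a description. All 4 differences were above 0 for 44 of the 74 genes, or 59.5%, compared with 17.7% of bright genes. The share was 55.7% among 79 genes of the respiratory chain and ATP synthase and 39.6% among 48 cytosolic ribosomal protein genes. The comparisons within a tissue and within an Ets2 label reuse the same arrays, so none of these counts stands for 4 separate observations.

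Genes with large and with small subunit symbols both had medians above 0 in all 4 comparisons, also under the 3 other scalings. Mrpl genes had medians of 0.33, 0.20, 0.34 and 0.45 in the tumor Ets2, remodeling Ets2, Ets2-expressing and Ets2-deficient comparisons, and Mrps genes 0.31, 0.12, 0.24 and 0.45. The Mrps symbols include Mrps18a and Mrps30, which belong to the large subunit, and Mrps36, which is not a ribosomal protein. Of 46 bright Mrpl genes 39 lay above 0 between the tumor arrays, and of 26 bright Mrps genes 21. Proteins with a bacterial counterpart, 43 genes, had medians of 0.34, 0.20, 0.24 and 0.45. Mitochondria-specific proteins, 30 genes, had medians of 0.28, 0.07, 0.33 and 0.46, which all stayed above 0 under the 3 other scalings. Their quartiles were wider between the Ets2-expressing arrays, at -0.06 and 0.71, than those of the former group at 0.14 and 0.36. Whether these subgroups differ from each other was not tested.

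Several members with known special roles followed the family. Mrpl58, a peptidyl-tRNA hydrolase built into the large subunit, read 8.59, 8.94, 9.10 and 9.34. Mrpl41, a mitochondria-specific large subunit protein, read 10.35, 10.58, 10.75 and 11.11. Both were in ascending order. Mrps30, which like Mrps18a belongs to the large subunit in spite of its symbol, read 8.79, 8.85, 9.06 and 8.98, and its differences ran from -0.08 to 0.28. The 3 Mrps18 genes did not move alike: Mrps18b read 8.95, 8.97, 8.97 and 9.27, Mrps18c 11.03, 11.28, 11.08 and 11.45, and Mrps18a was lower in remodeling Ets2-deficient macrophages as described. Mrpl45, which lies by the exit tunnel and the inner membrane, was dim at 5.37, 5.07, 5.41 and 6.0.

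Of the family, 41 genes had 1 probe set, 33 had at least 2 and 13 at least 3. Over all 127 probe sets, 101, 104, 103 and 103 were bright in the tumor Ets2, remodeling Ets2, Ets2-expressing and Ets2-deficient comparisons, with medians of 0.30, 0.18, 0.26 and 0.39, close to those of the genes. Where a gene had 2 or more bright probe sets, they shared the sign of the difference for 15 of 21, 14 of 22, 11 of 22 and 15 of 22. The pooled standard deviation between the bright probe sets of a gene was 0.292, 0.263, 0.605 and 0.350 within the family and 0.338, 0.278, 0.410 and 0.320 over all genes. Between the tumor arrays 35 family genes, or 48.6%, were higher by more than the latter, beside 21.9% of all bright genes. Between the Ets2-deficient arrays these were 43 genes, or 59.7%, beside 30.6%. The shares lay nearer to the background between the remodeling arrays, with 21 genes, or 29.6%, beside 22.9%, and between the Ets2-expressing arrays, also with 21 genes, or 29.6%, beside 25.8%. Lower by more were 3, 4, 1 and 1 family genes, or 4.17%, 5.63%, 1.41% and 1.39%, beside 16.2%, 19.2%, 19.1% and 19.8% of all bright genes. The remaining 34, 46, 49 and 28 bright family genes differed by no more than the scatter of probe sets.

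Mrpl15, a large subunit protein with 7 probe sets, shows that spread. The probe set used for Mrpl15 read 9.10, 9.49, 9.72 and 10.04, and 2 others gave like values and ascending order. A further one, at 6.31, 5.86, 5.16 and 5.87, gave -1.15 between the Ets2-expressing arrays where the first gave 0.62. Mrps9, a small subunit protein, read 7.61, 8.04, 8.29 and 8.61 on the probe set used, with a difference of 0.68 between the Ets2-expressing arrays. Another probe set of Mrps9, at 6.46, 6.19, 4.35 and 6.05, gave -2.10. Mrpl19 was at 0.34 on the probe set used and at -1.33 on another, and between the Ets2-deficient arrays the remaining one gave -1.0. At the level of probe sets 3 were therefore called lower between the Ets2-expressing arrays and 1 between the Ets2-deficient arrays, although 0 genes were. Every further probe set is dimmer on average than the one used, by the rule that chose it. The 3 bright probe sets of Mrpl52 all lay above 0 in all 4 comparisons, from 0.20 to 0.66.

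The remaining genes with 3 or more probe sets were Mrpl1, Mrpl3, Mrpl11, Mrpl13, Mrpl28 and Mrpl51, all of the large subunit. Mrpl1 read 7.98, 8.34, 8.53 and 8.71 on the probe set used, an ascending order, with 0.55 between the Ets2-expressing arrays and 0.37 between the Ets2-deficient arrays. A second probe set of Mrpl1, nearly as bright at 8.23, 8.46, 7.34 and 7.91, gave -0.89 and -0.55 there, so the tumor arrays were low on it. Mrpl51 read 10.30, 10.68, 10.73 and 11.16 on the probe set used, with a tumor difference of 0.43. Its 2 dimmer probe sets gave -0.39 and 0.66 for the same arrays, and 0.13 and -0.59 between the Ets2-expressing arrays where the first gave 0.42. The direction for Mrpl1 and Mrpl51 thus depended on the probe set. Mrpl28 gave 0.24, 0.25 and -0.12 between the tumor arrays, and its probe sets all lay above 0 in the other comparisons. For Mrpl13 the tumor differences were 0.40, 0.31 and 0.28, and the lowest value of its 3 probe sets in any comparison was -0.01. Mrpl11 lay between -0.03 and 0.49 on its 3 bright probe sets. Mrpl3 gave 0.58 and 0.48 between the tumor arrays on its 2 bright probe sets, and 0.14 and -0.04 between the Ets2-expressing arrays.

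**Figure D4:**
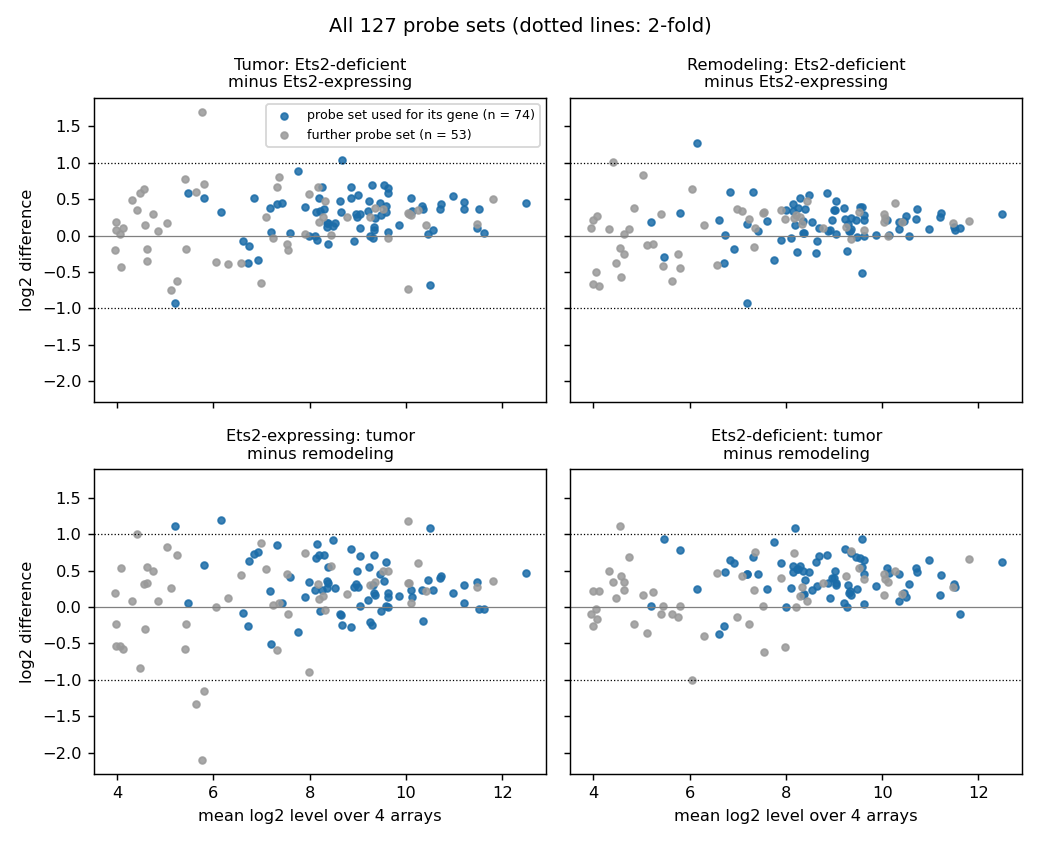
Log2 difference (vertical axis) against mean log2 level over the 4 arrays (horizontal axis) for all 127 probe sets in the 4 comparisons, with the 74 used for genes in blue and the 53 further ones in grey; dotted lines mark 2-fold. Brighter probe sets crowd just above 0. The points that reach 2-fold below 0, down to -2.10, are grey and counted as bright. The lowest blue points are Mrps5 at -0.93 between the tumor arrays, which was not bright, and Mrps18a at -0.92 between the remodeling arrays, which was.

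The promoters of the family were searched for 8 short motifs on both strands, in windows from 250 bases before to 50 bases after the start, taken from RefSeq on GRCm38.p6. Of the 74 genes, 65 matched, with 71 windows. The ETS motif CCGGAAG, of the kind bound by Gabpa and other ETS factors, was in 33.8% of family windows, compared with 8.86% of all 32851 windows and 14% of the 12566 windows of genes on the array. The YY1 motif AAGATGGC was in 15.5%, beside 2.75% and 3.6%, and the NRF1 motif GCATGCGC in 11.3%, beside 2.71% and 4.29%. The end of CCGGAAG can be the start of AAGATGGC, and each was counted where it occurred. Other motifs were nearer to the windows of array genes: GGGCGG in 54.9% against 55.4%, CCAAT in 39.4% against 37.1%, CACGTG in 9.86% against 9.11%, TGACGTCA in 2.82% against 2.51% and TATAAA in 7.04% against 9.81%. A match describes letters in a window and is not a site in use. Family genes with the ETS motif, 24 genes, had median differences of 0.31, 0.20, 0.30 and 0.46, and the 41 without it 0.34, 0.14, 0.21 and 0.33. The 11 genes with the YY1 motif had 0.45, 0.09, 0.10 and 0.47, and the 54 without it 0.29, 0.20, 0.28 and 0.33. For the NRF1 motif these were 0.32, 0.07, 0.10 and 0.29 with it and 0.32, 0.16, 0.24 and 0.44 without it. Whether genes with and without a motif differ was not tested.

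Many family genes start close to a gene on the other strand. Within 1000 bases, 24 of 65 matched family genes, or 36.9%, had such a head-to-head neighbour, compared with 16.6% of 9887 array genes. Mrpl46 and Mrps11, a small subunit protein with a bacterial counterpart, face each other across 42 bases. Mrpl46 read 6.67, 6.48, 7.43 and 7.09, and Mrps11 read 6.94, 7.10, 7.16 and 7.54. Between the tumor arrays they went opposite ways, -0.34 and 0.38, while both were higher in the tumor than in the remodeling gland. The bases between both starts, read towards Mrpl46 (chr7:78783090-78783130, minus strand, RefSeq on GRCm38.p6), are shown as the shortest stretch that serves 2 members.
Mrpl46: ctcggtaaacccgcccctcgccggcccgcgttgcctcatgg

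Of the neighbours outside the family, 15 were measured. Those bright in a comparison numbered 9, 8, 7 and 8, and had medians of 0.22, 0.14, 0.24 and 0.46. Ndufb5, a complex I subunit 308 bases from Mrpl47, read 10.92, 11.10, 11.29 and 11.53, and Mrpl47 9.81, 10.02, 10.04 and 10.55, so both ascended. Klc4, a kinesin light chain 141 bases from Mrpl2, read 5.57, 6.64, 7.29 and 7.45 and ascended like Mrpl2. Fau, the precursor of a cytosolic ribosomal protein, 192 bases from Mrpl49, read 13.05, 13.14, 13.30 and 13.10 and did not repeat the high tumor Ets2-deficient value of Mrpl49. Tcp1, a chaperonin subunit 238 bases from Mrpl18, was at 11.43, 11.42, 11.48 and 11.81, and Mrpl18 at 8.14, 8.35, 8.40 and 8.52.

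Ribosomal proteins named otherwise were measured for 4 genes. Dap3, a GTP-binding protein of the small subunit, read 8.33, 8.90, 9.10 and 9.44, an ascending order, as 32 of the 74 family genes had. Chchd1, also of the small subunit, read 8.18, 8.24, 7.54 and 8.70; it was low on the tumor Ets2-expressing array, with a tumor difference of 1.16. Ptcd3 read 7.83, 7.86, 8.39 and 8.12, and Gadd45gip1 was dim.

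Of the genes that the mitochondrial ribosome works with, some groups resembled the family and others did not. Subunits of the respiratory chain and ATP synthase, 79 genes, had medians of 0.24, 0.10, 0.17 and 0.35. These were above 0 under every scaling tried, though 0.03 with median centring between the Ets2-deficient arrays. Above 0 lay 84%, 74.3%, 81.1% and 89.2% of the bright ones, beside 83.3%, 80.3%, 77.5% and 93.1% of the family. The only called gene of this list was Ndufs5, a complex I subunit, which was lower on the tumor Ets2-deficient array in both comparisons that use it. Its difference was -2.66 between the tumor arrays, the lowest of all bright genes there, and -3.21 between the Ets2-deficient arrays. The tumor Ets2-deficient array was the highest for 62 of the 79 genes, or 78.5%, beside 32% of bright genes. With median centring it was highest for 38, or 48.1%, beside 19.5%, and with the hybridization controls for 51, or 64.6%, beside 26.6%. Cytosolic ribosomal proteins, 48 genes, had medians of 0.06, 0.07, 0.11 and 0.06, and with median centring these were -0.02, 0.26, 0.07 and -0.26, so their direction turned in 2 comparisons. Mitochondrial translation factors, with 4 or 5 bright genes, had medians of 0.50, 0.22, 0.35 and 0.64, above 0 under every scaling. Among them the elongation factor Gfm1 read 7.86, 8.16, 8.03 and 8.62, and the recycling factor Mrrf 6.84, 6.98, 7.14 and 7.73, both highest on the tumor Ets2-deficient array. The elongation factor Tufm read 7.40, 7.27, 7.80 and 7.91. Mitochondrial tRNA synthetases, 8 bright genes, had medians of 0.18, 0.13, 0.34 and 0.30, the last at -0.02 with median centring.

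Factors that assemble the mitochondrial ribosome did not follow the family between the tumor arrays. Of 10 bright genes 4 lay above 0, with a median of -0.04 that was 0.01 with the hybridization controls. Between the Ets2-expressing arrays 9 of 10 were higher in the tumor, with a median of 0.50, and between the Ets2-deficient arrays also 9 of 10, with 0.19 that turned to -0.13 with median centring and -0.04 with the hybridization controls. Mtg1, a GTPase of large subunit assembly, read 6.74, 6.31, 7.31 and 7.64 and was called between the Ets2-deficient arrays, with 1.33. Genes of mitochondrial transcription and RNA had a tumor Ets2 median of -0.12, with 4 of 12 above 0, below 0 under all 3 other scalings. Supv3l1, an RNA helicase of the mitochondrial degradosome, read 6.35, 6.42, 6.41 and 5.36, low on the tumor Ets2-deficient array, and was called lower there with -1.05. Tfam, which packages mitochondrial DNA, read 7.94, 8.25, 8.94 and 8.58.

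Of regulators known to act on these genes, 2 of 7 bright ones lay above 0 between the Ets2-expressing arrays and 0 of 6 between the Ets2-deficient arrays. Those above 0 were Creb1, at 0.18, and Pprc1, a coactivator, at 0.08, while Yy1 was at -0.06 and Sp1 at -0.65. Gabpa, an ETS factor, read 9.02, 8.99, 8.43 and 8.49, and its partner Gabpb1 9.82, 9.93, 9.07 and 9.51, both lower on the tumor arrays. Nrf1 read 6.38, 5.95, 5.04 and 5.49, a difference of -1.34 between the Ets2-expressing arrays, with only the remodeling Ets2-expressing value at or above its array's median. Over the bright regulators the medians were -0.59 and -0.39 in the tumor-minus-remodeling comparisons, below 0 under the 3 other scalings, and -0.04 and 0.11 in the tumor and remodeling Ets2 comparisons. The first of the latter turned to 0.02 with the hybridization controls. Esrra and Myc were below the array median on every array, at 4.86 to 5.12 and 4.37 to 5.15.

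**Figure D5:**
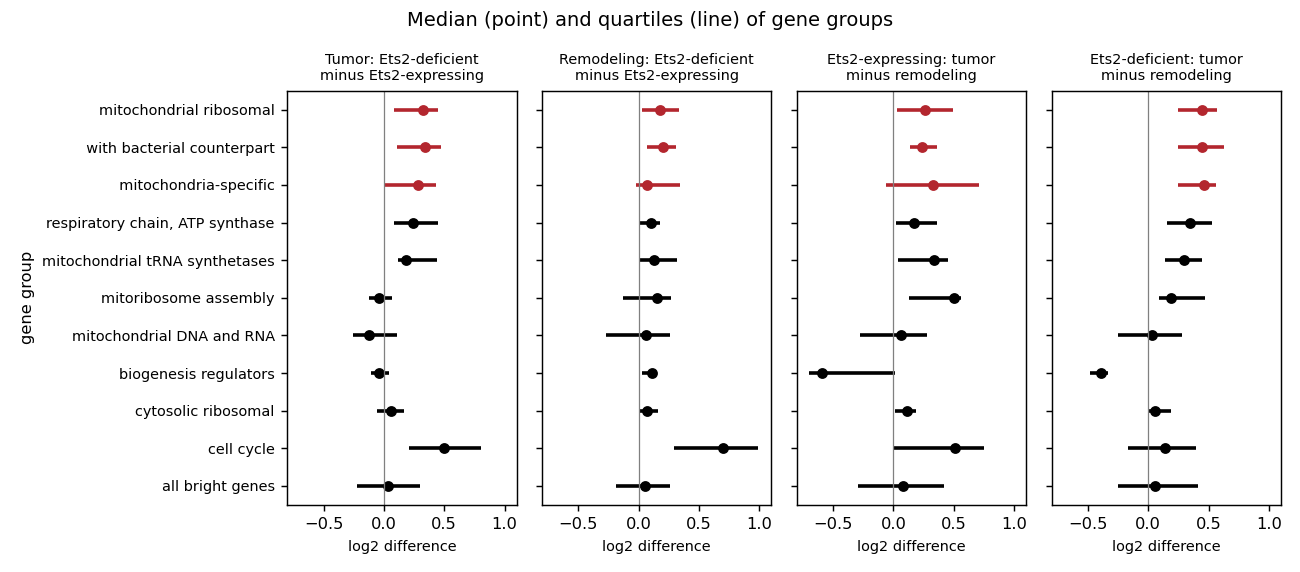
Median (point) and quartiles (line) of the log2 differences of bright genes for the mitochondrial ribosomal proteins, their bacterial-type and mitochondria-specific subsets (red), related gene groups and all bright genes (black) in the 4 comparisons. The family lies at 0.32, 0.18, 0.26 and 0.45 and the cytosolic ribosomal proteins at 0.06, 0.07, 0.11 and 0.06, while the regulators lie at -0.59 and -0.39 in the tumor-minus-remodeling panels.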

How the data were processed

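Expression was measured on 4 Affymetrix mouse arrays, 1 per group, and the log2 values were used as deposited by the authors. GCOS and RMA are the tools that the submitters' processing notes list; their versions, order and roles are not given in the sources used here. All 4 arrays were used and 0 per-sample columns were left out. The array annotation named the genes, and all 74 family genes matched RefSeq through Entrez identifiers, with 0 symbols updated. Differences, counts and medians were computed with Python 3.11.15, pandas 2.3.3 and numpy 2.4.6, and the procedure was tested on simulated data; no test was run, since 1 array per group leaves no replicate.

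Named were family genes past 2-fold, the 5 highest and 5 lowest bright ones per comparison, those with 3 or more probe sets and some chosen by role. From other lists Tfam, Tufm, Gabpa, Nrf1, Esrra and Myc were named, and some of the genes past 2-fold. The rule set for the latter was up to 4 per list and comparison. It was not carried through: most genes past 2-fold in the cell type marker and cell cycle lists are not named. Others (Mrpl18, Mrpl47, Mrps11, neighbouring genes, Gfm1, Mrrf, Gabpb1, Creb1, Pprc1, Yy1, Sp1, Ptcd3 and Gadd45gip1) were chosen after their values were seen. The members and lists were chosen with earlier results of these data known. Promoter windows came from RefSeq on GRCm38.p6. Alternatives were 3 scalings, 2 brightness filters, the mean of a gene's probe sets and a 1.5-fold threshold.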

Additional observations from a re-analysis of the deposited data

Results flagged for a closer look

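For 3 family genes, 2 comparisons of the same kind gave opposite signs, each beyond the pooled scatter among a gene's own probe sets. With 1 array per group the difference between the comparisons was not tested. Mrpl49 was higher without Ets2 in tumor macrophages, at 0.89, and lower in remodeling macrophages, at -0.34, while its other probe set gave -0.03 and 0.23. Mrps6 gave 0.41 in tumor and -0.51 in remodeling macrophages, on 1 probe set. Mrps18a, also with 1 probe set, was lower in the tumor than in the remodeling gland on the Ets2-expressing arrays, at -0.51, and higher on the Ets2-deficient arrays, at 0.46.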

How the results depend on the processing

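The family's median kept its direction in all 4 comparisons under the alternatives that were run. Of 84 values of the family recomputed under an alternative, 69 stayed within the limits set for a like value, and none changed sign. The others were as follows. The median between the remodeling arrays was 0.37 with median centring and 0.38 with the hybridization controls, and that between the Ets2-deficient arrays 0.13 and 0.22. With median centring the count of called genes was 0 between the tumor arrays and 0 between the Ets2-deficient arrays, and with the hybridization controls 0 between the Ets2-deficient arrays. With the mean of all probe sets of a gene it was 0 between the tumor arrays and 1 between the Ets2-expressing arrays. With the brighter array at or above its 75th percentile it was 0 between the remodeling arrays and 1 between the Ets2-expressing arrays; fewer genes are counted there, 40 and 41. At 1.5-fold the counts were 8, 5, 15 and 18 in the order tumor Ets2, remodeling Ets2, Ets2-expressing and Ets2-deficient. For the scalings the cause was not tested. The displacement of the family against all bright genes, and the counts of genes by highest and lowest array, were alternatives added after seeing the data. Of the differences of single named genes, 463 recomputed ones moved by less than the spread between probe sets and 209 by more. No array can be left out, and no paired analysis was possible because each group is 1 array. Probe sets near the array median, such as that of Mrpl55, carry the least signal over background.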

Other observations

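Probe sets that name a family gene together with another gene lie outside the family as chosen here, and 3 were present. The probe set of Mrpl30 and Gm6238 read 10.92, 11.12, 10.98 and 11.37 in the order of arrays used above. That of Mrps34 and Nme3 read 6.92, 7.18, 7.17 and 7.40, and that of Mrpl53 and Ccdc142 read 6.55, 6.76, 7.26 and 7.39. All 3 were lowest on the remodeling Ets2-expressing array and highest on the tumor Ets2-deficient array. Which of the named genes gave the signal cannot be told apart. Kars, the lysyl-tRNA synthetase of both cytosol and mitochondria, read 8.20, 8.20, 7.72 and 8.64, lowest on the tumor Ets2-expressing array as Chchd1 was. Mrps14 was also lowest there on the probe set used, but not on its other probe set. Polg2, the accessory subunit of the mitochondrial DNA polymerase, read 7.78, 8.69, 7.39 and 8.27, higher on both Ets2-deficient arrays, by 0.88 in tumor and 0.92 in remodeling macrophages. Kars and Polg2 were chosen after their values were seen.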
